A study of Homo sapiens with 6 samples.

Results

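The genes described here encode the translation initiation factors and the kinases that phosphorylate eIF2. Members were taken by symbol, as every gene whose symbol starts with EIF followed by a digit, and each symbol was represented by its transcript of highest mean value. The rule gave 55 of 19223 symbols, carried by 133 of 45006 transcripts, and 52 of them, which reached 10 in 3 or more libraries, could be tested. EIF1AY, EIF4E1B and EIF4E3 did not and are without a test. EIF4E1B, an oocyte form of the cap-binding protein, had values of 0.945, 0.884 and 0 in Control cells against 9.37, 4.54 and 22.7 in DCC-2036-treated cells. EIF4E3, a further cap-binding protein, had values of 3.78, 2.60 and 2.74 in Control cells against 2.08, 2.17 and 2.35 in DCC-2036-treated cells. Both genes lie near the low end of the table, where no test was made.

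RNA was measured in LoVo, an established human colorectal adenocarcinoma line, after exposure to DCC-2036 (rebastinib), a small-molecule inhibitor of tyrosine kinases. Control libraries 1 to 3 came from vehicle-treated wells without the drug, and DCC-2036 libraries 1 to 3 from wells with 2.5 μM of it. The labels give 48 h for both groups, whereas a figure legend of the study gives a shorter time. All 6 libraries come from one cell line grown in the same medium with serum, and the labels do not say whether the wells of a group were set up on separate days, so the p-values measure the spread between these libraries only.

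Initiation begins when eIF2, carrying GTP and the initiator tRNA, joins the small ribosomal subunit with eIF1, eIF1A, eIF5 and eIF3, while eIF4E, the eIF4A helicase and the eIF4G scaffold bring the capped mRNA. After the start codon is found, eIF2 leaves with GDP and has to be recharged by the exchange factor eIF2B. Phosphorylation of the eIF2 alpha subunit by HRI, PKR, PERK or GCN2 blocks this exchange and lowers initiation in general, and the 4E-BP proteins, which mTORC1 inactivates, hold back eIF4E. These controls act largely on proteins, through phosphorylation, and only RNA was measured here.

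The values are a normalised signal per transcript with an unknown number of reads behind it. Column totals ran from 38997229 to 40587145 in Control and from 43279603 to 48023306 in DCC-2036-treated cells. Of 9 colorectal epithelial marker genes, 7 reached 10 in all 6 libraries, among them EPCAM (4524 to 5961) and KRT18 (18786 to 27843), whereas VIL1 and CEACAM5 did not exceed 4.12. The summed epithelial markers were 104483 to 114998 in Control and 148337 to 188447 in treated cells, mostly from KRT8 (55603 to 64134 and 92924 to 125395). KRT20 was lower in treated cells without overlap (43.6 to 64.1 and 17.7 to 28.0), and CDX2 overlapped. Of 4 leukocyte markers CD68 alone reached 10 in every library, PTPRC was listed at 0 in all 6, and the list summed to 224 to 260 in Control and 208 to 282 in treated cells. Of 6 fibroblast markers COL1A1 alone did so (353 to 520, list sums of 370 to 440 in Control and 452 to 553 in treated cells), and of 2 endothelial markers 0 did, with sums of at most 7.21. The part of these differences in the results was not tested, and in bulk RNA fewer cells of a kind and less RNA per cell cannot be told apart.

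On the deposited scale more initiation factor genes rose than fell with all 6 libraries, a balance that was even with equal column totals and turned around in 5 other settings, and the few large differences were decreases. By limma on log2(value + 1), with p-values adjusted over all 12725 symbols tested and a limit of 0.01, 12 of the 52 members rose (23.1%, against 19.2% of all genes tested) and 4 fell (7.69%, against 22.7%). The other 36 did not pass the limit, and over all genes tested 41.9% passed in either direction. The 12 that rose reached 138% to 197% of the Control mean, and 0 of them a log2 fold change of 1, a size that 7.42% of all genes tested reached upward together with the p limit. Of the 4 that fell, EIF4G3, EIF2B4 and EIF1B had log2 fold changes below -1, and 15.2% of all genes tested passed the p limit with a log2 fold change of at most -1. The median log2 fold change was 0.17 over the 52 members and -0.09 over all genes tested, and 34 members (65.4%) had a positive value, against 46.2% of all genes. The 3 libraries of each group did not overlap for 25 members that were higher (all genes 32.9%) and 14 that were lower (38.1%), and they overlapped for 13 (all genes without overlap in either direction, 71.1%).

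The numbers of calls depended on the scaling and on single libraries. Scaling the columns to equal totals moved the median of all genes from -0.09 to -0.29 and that of the members from 0.17 to -0.03, and the calls among members from 12 higher and 4 lower to 7 and 7 (over all genes, from 45.8% to 32.7% of calls being higher). Without Control 1, Control 2, Control 3 or DCC-2036 library 2 the members called higher came to 0, 1, 0 and 0 and those called lower to 3 each time, so that more fell than rose. Calls over all genes also dropped in these settings, to between 929 and 968 higher and between 1502 and 1650 lower, and the share of them that was higher was 36.0% to 38.6%. Without DCC-2036 library 1, 12 were higher and 4 lower (over all genes, 2717 and 3444). Without library 3, 11 were higher and 6 lower (over all genes, 2501 and 3198). With the replicate number as a block 2 were higher and 3 lower (over all genes, 1202 and 1909). All 16 called members kept their direction in every alternative run, and EIF1B, EIF2B4 and EIF4G3 kept their calls in all 15 alternatives at the 0.01 limit. Of the 16, 8 overlap another expressed gene on the opposite strand (EIF2A, EIF2D, EIF2S2, EIF3B, EIF3H, EIF3L, EIF4ENIF1 and EIF5B), and all 8 were called higher. EIF1B, EIF2B4, EIF3K and EIF4G3, which fell, overlap no such gene. Over all 55 members 20 overlap an expressed gene, and the share over all genes was not computed. Whether reads were counted by strand is not given in the sources used here.

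Among the factors that scan for the start codon, EIF1B fell while its close relative EIF1 did not pass the test. EIF1 keeps the scanning ribosome open and guards the choice of start codon, and EIF1B encodes a near-identical protein from a second gene, on chromosome 3 from 40309684 to 40312424 (plus strand, GENCODE 29 on GRCh38). EIF1B had values of 520, 477 and 534 in Control (510 ± 29.9, SD, n = 3) and 209, 211 and 162 in DCC-2036-treated cells (194 ± 27.6, SD, n = 3). All 3 treated libraries lay far below the lowest Control library. The treated mean was 38.1% of Control, and the log2 fold change was -1.40 (SE 0.14, limma adjusted p = 0.000539, with 0.0000999 to 0.00528 over the alternatives).

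EIF1 had values of 6285, 6872 and 7223 in Control against 7249, 8956 and 10589 in treated cells. The groups just failed to meet, and the log2 fold change of 0.38 (SE 0.16) did not pass the limit (limma adjusted p = 0.0769, log2 fold changes of 0.25 to 0.52 when 1 library was left out). EIF5, which makes eIF2 hydrolyse its GTP, had values of 6656, 6456 and 6230 in Control against 3769, 4023 and 5427 in treated cells. All treated libraries were lower, with DCC-2036 library 3 closest to Control, and the log2 fold change was -0.57 (SE 0.16, limma adjusted p = 0.0193). Without that library it was -0.73 with an adjusted p of 0.00152. EIF1AX, which works beside EIF1 in scanning, had a log2 fold change of 0.09 (95% interval -0.14 to 0.33) and EIF1AD, a protein with an eIF1A-like domain, one of -0.36 (limma adjusted p = 0.0246). With equal column totals 3 of the 5 tested genes of this role were called lower (over all genes, 3442), against 1 on the deposited scale (over all genes, 2887).

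The 3 subunits of eIF2 differed in the direction of their values. EIF2S2, the beta subunit, rose from 3364, 3584 and 3107 in Control to 4836, 5369 and 5643 in treated cells, a log2 fold change of 0.66 (SE 0.11, limma adjusted p = 0.00323). EIF2S1, the alpha subunit that the kinases phosphorylate, had values of 3781, 4130 and 4018 in Control against 4205, 4583 and 4752 in treated cells. Its treated libraries were all higher by a small amount, and the log2 fold change of 0.18 had a 95% interval from -0.06 to 0.43. EIF2S3, the gamma subunit that binds GTP and the initiator tRNA, had values of 6015, 6018 and 6085 in Control against 5184, 4942 and 4480 in treated cells. Here every treated library was lower, with a log2 fold change of -0.31 (SE 0.10) that did not pass the limit (limma adjusted p = 0.0328).

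EIF2A and EIF2D, which are single proteins that can bring initiator tRNA to the ribosome outside the eIF2 complex, both rose. EIF2A went from 2610, 2826 and 2590 in Control to 3782, 4149 and 4472 in treated cells, with a log2 fold change of 0.63 (SE 0.11, limma adjusted p = 0.00336). EIF2D went from 815, 843 and 920 to 1313, 1193 and 1354, with a log2 fold change of 0.58 (SE 0.11, limma adjusted p = 0.00408). Neither gene had overlapping groups. EIF2D lost its call in 7 of the 15 alternatives, equal totals among them, and EIF2A and EIF2S2 in 5 each.

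Of the 5 subunits of eIF2B, the exchange factor that recharges eIF2, EIF2B4 fell and the other 4 did not pass the limit, a share of 1 in 5 near the 22.7% of all genes tested that fell. EIF2B4 encodes the delta subunit, one of the regulatory subunits, and lies on chromosome 2 from 27364352 to 27370486 (minus strand). Its values were 1303, 1378 and 1314 in Control (1332 ± 40.2, SD, n = 3) and 478, 467 and 321 in treated cells (422 ± 87.7, SD, n = 3). The treated mean was 31.7% of Control, with DCC-2036 library 3 the lowest, and the log2 fold change was -1.68 (SE 0.17, limma adjusted p = 0.000619, with 0.0000656 to 0.00484 over the alternatives). All 8 listed transcripts of EIF2B4 were lower, with log2 fold changes from -1.69 to -1.65, and as transcripts of one gene they are not independent measurements.

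EIF2B5, the catalytic epsilon subunit, had values of 1414, 1430 and 1467 in Control against 1060, 921 and 597 in treated cells. All treated libraries were lower but spread widely, and the log2 fold change of -0.78 (SE 0.22) had a limma adjusted p of 0.0191. Without DCC-2036 library 3 the log2 fold change was -0.54 with an adjusted p of 0.00571, and without library 1 it was -0.95 with one of 0.00733. EIF2B1, the alpha subunit, had values of 1244, 1310 and 1359 in Control against 1700, 1668 and 1718 in treated cells, all higher, with a log2 fold change of 0.38 (SE 0.09, limma adjusted p = 0.0125, and 0.00798 with median-of-ratios scaling).

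EIF2B2, the beta subunit, had values of 931, 999 and 1043 in Control against 953, 1030 and 1033 in treated cells. EIF2B3, the gamma subunit that works with epsilon, had values of 434, 474 and 492 in Control against 458, 525 and 481 in treated cells. In both genes the groups overlapped, and the 95% intervals of the log2 fold change ran from -0.22 to 0.26 for EIF2B2 and from -0.19 to 0.32 for EIF2B3. Within 1 complex the subunit genes therefore ranged in log2 fold change from -1.68 to 0.38.

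None of the 4 eIF2 kinase genes passed the limit of 0.01 by limma on the deposited scale, which 41.9% of all genes tested passed in either direction, and EIF2AK3 alone had an unadjusted p under 0.05. With median-of-ratios scaling EIF2AK3 passed the limit (limma adjusted p = 0.00899). EIF2AK3 encodes PERK, the kinase of the endoplasmic reticulum that responds to unfolded proteins. Its values were 322, 262 and 294 in Control against 397, 393 and 387 in treated cells, so that every treated library was above every Control library, and the log2 fold change was 0.43 (SE 0.11, limma adjusted p = 0.0154). EIF2AK4 encodes GCN2, which senses uncharged tRNA, and had values of 1130, 1094 and 1117 in Control against 1050, 892 and 827 in treated cells. These did not overlap either, in the lower direction, with a log2 fold change of -0.28 (95% interval -0.56 to 0.01, limma adjusted p = 0.0825).

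EIF2AK1 encodes HRI, activated by lack of heme and by mitochondrial stress. Its values were 3926, 3876 and 4015 in Control against 3369, 3735 and 3669 in treated cells, lower in all 3, with a log2 fold change of -0.13 (95% interval -0.36 to 0.10). EIF2AK2 encodes PKR, which double-stranded RNA activates and interferon induces. Its values of 1016, 991 and 904 in Control against 944, 827 and 816 in treated cells overlapped, with a log2 fold change of -0.17 (95% interval -0.44 to 0.09). The 95% intervals leave room for log2 fold changes down to -0.36 for EIF2AK1, -0.44 for EIF2AK2 and -0.56 for EIF2AK4. For EIF2AK3 the 95% interval ran from 0.16 to 0.69.

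**Figure D1:**
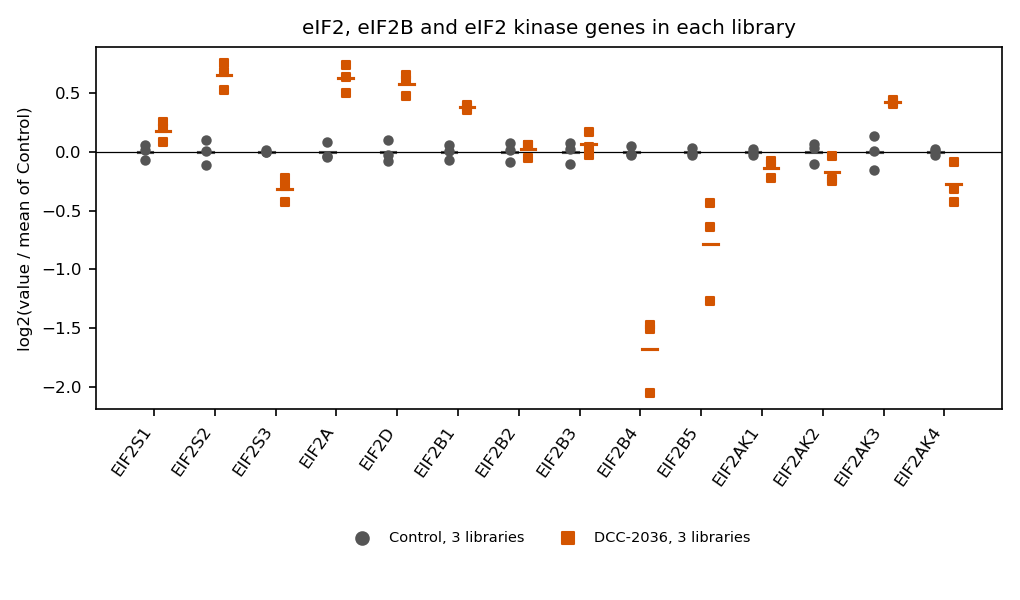
Log2 of each library's value over the Control mean for the genes of eIF2, eIF2B, the alternative tRNA carriers EIF2A and EIF2D and the 4 eIF2 kinases. Dots are Control libraries, squares DCC-2036 libraries and bars their means, and EIF2B4 has all 3 squares below -1 whereas the kinase genes stay within 0.5 of the Control mean.

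Of 10 listed genes that act on eIF2 or its phosphorylation, all tested, 5 rose and 2 fell (all genes tested, 19.2% and 22.7%). Both genes of the regulatory subunits that direct protein phosphatase 1 to eIF2 alpha fell. PPP1R15A, the stress-induced subunit also called GADD34, had values of 769, 825 and 791 in Control against 332, 302 and 293 in treated cells (log2 fold change -1.36, SE 0.10, limma adjusted p = 0.000272). PPP1R15B, the constitutive subunit, had values of 2352, 2298 and 2108 in Control against 1356, 1168 and 1228 in treated cells (log2 fold change -0.85, SE 0.11, limma adjusted p = 0.00117). In both genes the highest treated library was far below the lowest Control library.

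DNAJC3, the endoplasmic reticulum co-chaperone p58IPK, rose from 1492, 1476 and 1387 in Control to 3394, 3672 and 4328 in treated cells (log2 fold change 1.38, SE 0.12, limma adjusted p = 0.000414). NCK1, an adaptor that can bind eIF2 beta and PERK, rose from 331, 309 and 321 to 579, 738 and 839 (log2 fold change 1.15, SE 0.15, limma adjusted p = 0.00138). IMPACT, a competitor of GCN2 for its activator, rose from 556, 577 and 566 to 774, 863 and 969 (log2 fold change 0.61, limma adjusted p = 0.00467). The last 2 that rose were PPP1CB, a catalytic subunit of protein phosphatase 1, with a log2 fold change of 0.88, and CDC123, which helps to assemble eIF2, with one of 0.51. GCN1, the activator of GCN2, had a log2 fold change of -0.22 (95% interval -0.65 to 0.21), which ran from -0.38 to -0.043 when 1 library was left out.

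The eIF3 complex, which organises the factors on the small ribosomal subunit, is the role with the most genes. Of 14 genes tested, 5 rose (35.7%, all genes tested 19.2%), 1 fell (7.14%, all genes tested 22.7%) and 8 did not pass the limit, and the median log2 fold change was 0.39. With equal column totals 3 rose and 2 fell (over all 12725 genes, 1672 and 3442), and with median-of-ratios scaling 7 rose and 0 fell (over all genes, 2641 and 2667). EIF3H, a subunit with an MPN domain, rose from 6128, 6578 and 6358 in Control to 10152, 12232 and 15128 in treated cells. EIF3A, the large scaffold subunit, rose from 15699, 15752 and 15104 to 23489, 27912 and 34857. In both the treated libraries were spread over more than the Control libraries, and the log2 fold changes were 0.96 (SE 0.16, limma adjusted p = 0.00291) and 0.87 (SE 0.16, limma adjusted p = 0.00396).

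EIF3B, the RNA-binding core subunit, rose from 11247, 11400 and 11919 in Control to 16668, 18334 and 18442 in treated cells (log2 fold change 0.63, SE 0.10, limma adjusted p = 0.0023). EIF3E, a subunit with a PCI domain, rose from 9334, 9979 and 8947 to 12604, 14532 and 16264 (log2 fold change 0.61, SE 0.13, limma adjusted p = 0.00652). EIF3L, a subunit at the edge of the complex that pairs with EIF3K, rose from 7568, 7829 and 8355 to 11183, 11694 and 11822 (log2 fold change 0.55, SE 0.10, limma adjusted p = 0.00348). EIF3K itself, on chromosome 19 from 38619082 to 38636955 (plus strand), fell from 2433, 2695 and 2802 to 1712, 1798 and 1923, with no overlap and a log2 fold change of -0.54 (SE 0.11, limma adjusted p = 0.00539). The neighbouring subunits EIF3K and EIF3L thus had opposite calls on the deposited scale. Of the 15 alternatives, EIF3K lost its call in 8, median-of-ratios scaling among them, and EIF3L in 6. EIF3E lost its call in 7, EIF3A and EIF3B in 5 each and EIF3H in 4.

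EIF3F, EIF3G and EIF3M had higher values in all treated libraries, with log2 fold changes of 0.47, 0.40 and 0.39 and limma adjusted p of 0.011, 0.0159 and 0.0145. EIF3D, EIF3I and EIF3J ranged from 0.10 to 0.23. EIF3C and EIF3CL have coding sequences identical over all 2742 bases aligned, so coding reads from them cannot be told apart, and their log2 fold changes of -0.35 and -0.34 are uncertain as to the gene. The value of EIF3CL was -0.09 without DCC-2036 library 1 and -0.52 without library 3.

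**Figure D2:**
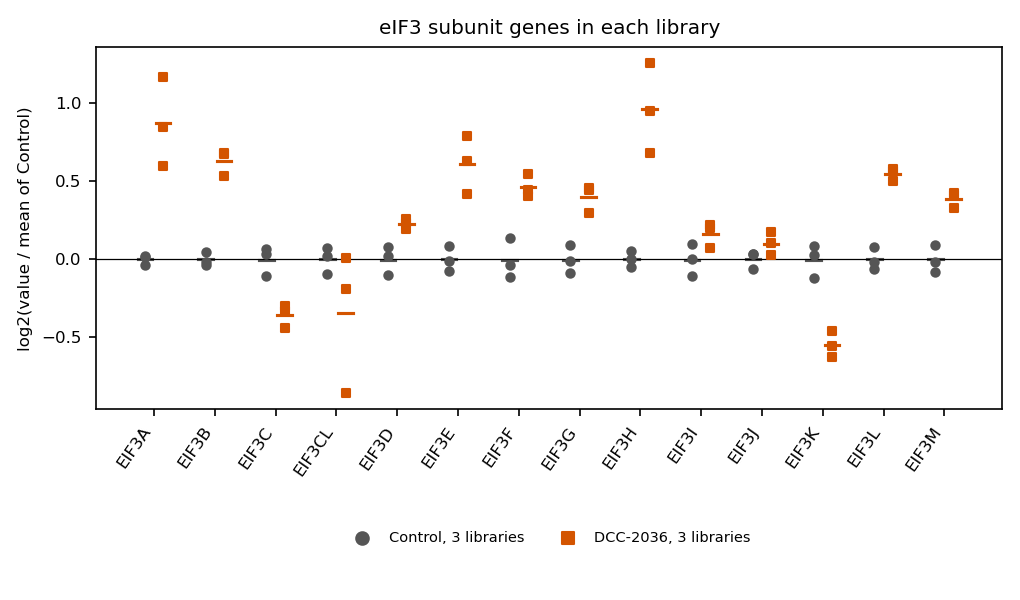
Log2 of each library's value over the Control mean for the 14 tested eIF3 subunit genes. Dots are Control libraries, squares DCC-2036 libraries and bars their means, with EIF3H and EIF3A highest (mean log2 fold changes of 0.96 and 0.87) and EIF3K below all of its Control libraries.

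At the cap, EIF4E, the protein that binds it, had values of 2062, 2149 and 1879 in Control against 2519, 2760 and 3256 in treated cells. All treated libraries were higher, and the log2 fold change of 0.48 (SE 0.13) did not pass the limit (limma adjusted p = 0.0182). EIF4E2, also called 4EHP, competes for the cap without binding eIF4G and represses translation. Its transcript with the highest mean had values of 815, 822 and 865 in Control against 1067, 897 and 759 in treated cells, which overlapped (log2 fold change 0.11, 95% interval -0.24 to 0.45).

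Among the 28 members with several tested transcripts EIF4E2 had the widest spread, from -0.30 to 0.62 in log2 fold change over 7 transcripts. Transcript NM_004846.3, which stops upstream of the other matched transcripts, had values of 631, 701 and 747 in Control against 1041, 1092 and 991 in treated cells (log2 fold change 0.59, SE 0.11, limma adjusted p = 0.00396 with every transcript as its own row). NM_001330202.1 and NM_001330201.1 were also higher in this fit, with log2 fold changes of 0.58 and 0.62 and adjusted p of 0.00497 and 0.00619, against 19.7% of all 32323 transcripts called higher and 22.4% called lower. NM_001276337.1 had values of 480, 467 and 508 in Control against 561, 401 and 290 in treated cells, which overlapped (log2 fold change -0.27, limma adjusted p = 0.346). The ratio of NM_004846.3 to the transcript with the highest mean differed by 0.48 on the log2 scale (95% interval 0.16 to 0.80), which did not pass the limit over all 19352 ratios tested (limma adjusted p = 0.112).

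The 3 coding ends that could be matched in GENCODE 29 (GRCh38, chromosome 2, plus strand) are shown as their last 60 coding bases, with the stop codon in capitals. EIF4E2 was chosen for this after its spread was seen. NM_004846.3, the matched transcript that was higher, ends its reading frame elsewhere than the other matched transcripts, but its ratio did not pass the limit. As transcripts of one gene they are not independent measurements. The last coding segments, stop codon not included, are chr2:232568945-232569014 for NM_004846.3, chr2:232574263-232574305 for NM_001282958.1 and chr2:232580904-232580940 for NM_001276336.1. NM_001282958.1 is the transcript with the highest mean, and NM_001276337.1 ends its reading frame at the last of these segments too. For NM_001282958.1 and NM_001276336.1 the segment is shorter than the printed stretch, which begins in an earlier coding exon.
NM_004846.3: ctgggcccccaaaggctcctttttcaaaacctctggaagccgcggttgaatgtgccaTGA
NM_001282958.1: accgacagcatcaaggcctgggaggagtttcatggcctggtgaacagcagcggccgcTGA
NM_001276336.1: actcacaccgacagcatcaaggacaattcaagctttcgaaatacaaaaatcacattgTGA

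Over all members, 73 ratios of a further transcript to the kept one were tested in 28 genes, and 0 passed the limit of 0.01, against 0.398% of all ratios tested by limma. At an adjusted p under 0.05, 3 passed (4.14% of all ratios). The 3 were chosen after their values were seen, a pair from EIF1AD and NM_001166588.2 of EIF2B3, whose ratio was higher by 0.20 on the log2 scale (adjusted p = 0.0305).

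The inhibitors of EIF4E differed in the direction of their values and did not pass the limit. EIF4EBP1 had values of 835, 803 and 766 in Control against 959, 951 and 993 in treated cells, all higher (log2 fold change 0.27, SE 0.09, limma adjusted p = 0.041). EIF4EBP2 had values of 2692, 2616 and 2756 in Control against 2230, 1989 and 1207 in treated cells, all lower with DCC-2036 library 3 farthest away (log2 fold change -0.62, SE 0.23, limma adjusted p = 0.0548). Without that library the log2 fold change was -0.35. EIF4EBP3 had values of 57.2, 62.2 and 87.8 in Control against 96.5, 93.1 and 103 in treated cells (log2 fold change 0.52, limma adjusted p = 0.0391), and it shares its strand with the read-through gene ANKHD1-EIF4EBP3, so its reads are uncertain as to the gene.

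EIF4ENIF1, which carries EIF4E into the nucleus and into processing bodies, rose from 671, 713 and 743 in Control to 962, 937 and 1139 in treated cells (log2 fold change 0.51, SE 0.12, limma adjusted p = 0.00961). This call was the one most often lost, in 10 of the 15 alternatives. The helicase genes themselves did not pass the limit. EIF4A1, the main helicase that unwinds the leader of the mRNA, had values of 23183, 24509 and 25340 in Control against 24587, 26639 and 27346 in treated cells, which overlapped (log2 fold change 0.11, 95% interval -0.13 to 0.34). EIF4A2, its close relative, had values of 4604, 4274 and 4062 in Control against 2767, 3342 and 4612 in treated cells, with DCC-2036 library 3 above all Control libraries (log2 fold change -0.30, 95% interval -0.77 to 0.17, with -0.50 without that library and -0.13 without library 1). EIF4A3, the helicase of the exon junction complex, had values of 5269, 5609 and 5684 in Control against 4958, 4303 and 4120 in treated cells, all lower (log2 fold change -0.31, limma adjusted p = 0.0473).

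Both cofactors of the helicase rose on the deposited scale, and EIF4B lost its call with equal totals or upper-quartile scaling. EIF4H went from 11136, 12099 and 12712 in Control to 17429, 20443 and 22455 in treated cells, with no overlap and a log2 fold change of 0.74 (SE 0.13, limma adjusted p = 0.00345). EIF4B, a phosphorylation target of S6 kinase, went from 13397, 13136 and 13493 to 19530, 19021 and 16700 (log2 fold change 0.46, SE 0.10, limma adjusted p = 0.00901). The EIF4B call is close to the limit and was lost in 9 of the 15 alternatives.

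The scaffold genes ranged in log2 fold change from -1.72 to 0.36. EIF4G3, a second scaffold that joins eIF4E, eIF4A and eIF3, lies on chromosome 1 from 20806292 to 21176888 (minus strand). Its values were 1309, 1144 and 1219 in Control (1224 ± 82.6, SD, n = 3) and 506, 339 and 294 in treated cells (380 ± 112, SD, n = 3). Every treated library was below every Control library by a wide margin. At 31.0% of the Control mean, its log2 fold change of -1.72 (SE 0.21, limma adjusted p = 0.000999, with 0.000123 to 0.00694 over the alternatives) was the lowest of the 52 members, and its other 3 listed transcripts had log2 fold changes of -1.82, -1.72 and -1.48.

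EIF4G1, the main scaffold, had values of 20029, 20316 and 21841 in Control against 27228, 27810 and 24671 in treated cells, all higher (log2 fold change 0.36, SE 0.10, limma adjusted p = 0.0218). EIF4G2, also called DAP5, which lacks the eIF4E binding site, had values of 25535, 26650 and 25806 in Control against 24583, 26612 and 27734 in treated cells. These overlapped, and the log2 fold change of 0.02 had a 95% interval from -0.22 to 0.25.

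In 7 pairs of related genes the log2 ratio of their values was compared between the groups. EIF4G1 over EIF4G3 was higher by 2.08 in treated cells and EIF1 over EIF1B by 1.78, each with no overlap between the groups. EIF5A over EIF5A2 was higher by 0.90, EIF4EBP1 over EIF4EBP2 by 0.89 and EIF4G1 over EIF4G2 by 0.34, also without overlap. For each of these 5 pairs the two-sided exact permutation p was 0.1, the smallest that 3 against 3 libraries can give, and 0.14 after Benjamini-Hochberg adjustment over the 7 pairs. Among single genes, 71.1% of all genes tested were without overlap in either direction. No such share was computed over ratios of gene pairs, so the 5 of 7 pairs have no background of their own kind. EIF4A1 over EIF4A2 (0.41, exact p = 0.2) and EIF4E over the kept transcript of EIF4E2 (0.37, exact p = 0.3) overlapped, and the latter was 0.15 without DCC-2036 library 3 and 0.58 without library 1. The coding sequences of EIF1 and EIF1B are 82.2% identical and those of EIF4G1 and EIF4G3 66.0%.

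Late in initiation, EIF5B, the GTPase that joins the ribosomal subunits, rose from 5718, 5966 and 5183 in Control to 8795, 9067 and 9774 in treated cells (log2 fold change 0.71, SE 0.11, limma adjusted p = 0.00197). EIF6, which keeps the subunits apart, had overlapping groups (log2 fold change -0.08, 95% interval -0.33 to 0.18). EIF5A, which helps the ribosome past stalling peptides and needs the modified residue hypusine, had values of 18116, 19501 and 20538 in Control against 23341, 27672 and 31977 in treated cells. EIF5A2, its relative, had values of 342, 372 and 328 in Control against 299, 271 and 228 in treated cells. The groups were apart in both, upward for EIF5A (log2 fold change 0.50, limma adjusted p = 0.0209) and downward for EIF5A2 (log2 fold change -0.39, limma adjusted p = 0.039). EIF5AL1 had values of 46.9, 51.7 and 67.4 in Control against 64.5, 114 and 97.2 in treated cells, which overlapped (log2 fold change 0.70, limma adjusted p = 0.0428), and its coding sequence is 98.9% identical to that of EIF5A, so its reads may belong to EIF5A.

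Of 15 listed genes of the mTORC1 pathway that controls eIF4E through the 4E-BPs, all tested, 3 rose and 3 fell, shares near those of all genes tested (19.2% and 22.7%). SESN2, a stress-induced inhibitor of mTORC1 signalling, rose from 383, 405 and 397 in Control to 1201, 1308 and 1326 in treated cells (log2 fold change 1.69, SE 0.10, limma adjusted p = 0.000193). DDIT4, also called REDD1 and likewise an inhibitor, rose from 1566, 1542 and 1424 to 2804, 3314 and 3405 (log2 fold change 1.07, SE 0.12, limma adjusted p = 0.000728). The third, LARP1, a repressor of mRNAs with a terminal oligopyrimidine tract, had a log2 fold change of 0.97 (SE 0.16, limma adjusted p = 0.0027).

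MLST8, a core subunit of mTORC1, fell from 1192, 1331 and 1430 in Control to 539, 641 and 801 in treated cells (log2 fold change -1.01, SE 0.17, limma adjusted p = 0.00291). PDCD4, which binds and inhibits eIF4A, fell from 243, 251 and 216 to 131, 128 and 123 (log2 fold change -0.89, SE 0.10, limma adjusted p = 0.000892). MKNK1, a kinase that phosphorylates eIF4E, fell from 479, 501 and 473 to 305, 266 and 198 (log2 fold change -0.94, SE 0.17, limma adjusted p = 0.00403). In all 3 genes the groups lay apart. MKNK2, the second such kinase, was also lower in every treated library, with a log2 fold change of -0.43 that did not pass the limit (limma adjusted p = 0.106, log2 fold change -0.22 without DCC-2036 library 3 and -0.61 without library 1).

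Of 18 further initiation and recycling factors, all tested, 2 rose (11.1%, all genes tested 19.2%) and 4 fell (22.2%, all genes tested 22.7%). BZW2, a protein that imitates eIF5, rose from 1494, 1571 and 1599 in Control to 2652, 3111 and 3617 in treated cells (log2 fold change 1.00, SE 0.14, limma adjusted p = 0.00149), and PAIP1, which joins poly(A)-binding protein to eIF4A and eIF3, had a log2 fold change of 0.73. PAIP2B, which displaces poly(A)-binding protein, fell from 121, 121 and 94.6 to 38.4, 56.0 and 34.4 (log2 fold change -1.39, SE 0.21, limma adjusted p = 0.00203). ABCF1, an ATPase that interacts with eIF2, fell from 2871, 2844 and 3007 to 1776, 1446 and 978 (log2 fold change -1.10, SE 0.22, limma adjusted p = 0.00566). NCBP1, of the nuclear cap-binding complex, and MCTS1, a re-initiation factor, fell with log2 fold changes of -0.90 and -0.44. PABPC1, the main poly(A)-binding protein, was higher in all treated libraries at a log2 fold change of 0.38 (limma adjusted p = 0.0288).

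Promoter sequences were searched for a run of pyrimidines at the start, a feature that mRNAs of the translation machinery are known for. The short motifs CACGTG, TGATGNAA and TGACGTCA were searched for as well. RefSeq windows on GRCh38.p14, from 250 bases before to 50 bases after a start, were found for 46 of the 55 members, 61 windows in all. The 9 members without a window were EIF2AK1, EIF2S2, EIF3A, EIF3CL, EIF3E, EIF3G, EIF3H, EIF3L and EIF4EBP1. Of these, EIF2S2, EIF3A, EIF3E, EIF3H and EIF3L were called higher and could not be searched, whereas every member called lower had a window. A run of at least 6 C or T that begins with C within 5 bases of the start, as in terminal oligopyrimidine mRNAs, was present in 11 of the 61 windows (18.0% of windows), against 11.1% of 35116 windows of all genes. Of the 11 genes, EIF2A and EIF2D rose, EIF3K fell, and EIF2S3, EIF3D, EIF3F, EIF3J, EIF3M, EIF4A2, EIF4E2 and EIF4G2 did not pass the limit. These 3 called of 11 stand against 41.9% of all genes tested. The motif CACGTG, which reads the same on both strands, was in the windows of 12 genes (19.7% of windows, against 7.26% of all), of which EIF4B and EIF4H rose, EIF1B and EIF3K fell and 8 did not pass the limit (all genes called, 41.9%). TGATGNAA on either strand was in 1 window, that of EIF4E3 (1.64% against 3.62%), and TGACGTCA, also its own reverse complement, in 0 (all windows, 1.85%). Such matches describe letters in a window and are not sites of binding.

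The 3 called genes with a pyrimidine run and EIF3F, chosen after it was seen for its long run, are shown from 15 bases before the start to 14 after it, on the strand of the gene, with the run in capitals. The windows are chr3:150546772-150546801 on the plus strand for EIF2A, chr1:206612451-206612480 on the minus strand for EIF2D, chr19:38619173-38619202 on the plus strand for EIF3K and chr11:7987322-7987351 on the plus strand for EIF3F.
EIF2A: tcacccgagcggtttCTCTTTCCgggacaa
EIF2D: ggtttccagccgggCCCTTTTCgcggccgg
EIF3K: ttccgtttccaccaCCTCTTCCTgttcccg
EIF3F: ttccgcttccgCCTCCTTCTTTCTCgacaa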

How the data were processed

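RNA of 3 Control and 3 DCC-2036-treated LoVo cultures was isolated with Trizol, and libraries were made with the Illumina Nextera XT kit, per the labels. Samples were grouped by their titles. The authors deposited 1 signal value per transcript and library, adjusted to a common depth by a method that, like aligner, counting, strand and genome build, is not given in the sources used here. Whole reads could not be recovered from these values, so depth per library is unknown and no counting interval was computed. The deposited log2 fold changes, p-values and q-values were not used. There were 0 columns of other samples.

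The transcript with the highest mean was kept per symbol, and symbols that reached 10 in 3 or more libraries were tested with limma 3.58.1 in R 4.3.3 on log2(value + 1), without covariates, two-sided, with Benjamini-Hochberg adjustment over 12725 symbols and a limit of 0.01. Fold changes on this scale understate those of low genes. Ratios of further transcripts to the kept one were tested likewise over 19352 ratios, leaving out transcripts identical to the kept one. Ratios of related genes were tested by exact permutation (scipy 1.17.1, Python 3.11.15). Gene positions and coding sequences came from GENCODE 29 and promoter windows from RefSeq. Plots were made with matplotlib 3.10.9.

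Values per library are given for the eIF2 kinases, eIF2, eIF2B, eIF4E, eIF4A, eIF4G, EIF4EBP, EIF5A and EIF1 families, for tested members among the 10 largest absolute changes, and, of the lists of other translation genes, for called genes that changed by 1 or more on the log2 scale and a short set of regulators. Further called members and EIF5 are given with values because of their roles, and other members by counts, range or estimate. Members and lists were chosen with earlier results of these data known. The fits were tested on simulated data. The share of planted changes that was at first required was not reached, and the requirement was then set on false calls, bias and large changes. In the gene fit 39% of planted changes of size 1 and 69% of those of size 2 were recovered, with 0 false calls. Only 100 changes of each size were planted among 12725 genes, whereas 41.9% of genes were called here. The adjustment therefore differs, and these shares do not measure recovery in the data themselves. A gene that did not pass the limit may still differ. Alternatives were 3 scalings, a pseudocount of 0.1, 2 filters, a mean-variance trend, a replicate block, leaving out each library, every transcript as a row and a limit of 0.05.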

Additional observations from a re-analysis of the deposited data

How the results depend on the processing

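No pairing by replicate number was seen, which with 3 libraries a group cannot exclude that wells were matched. Over 12725 genes, the deviation of a Control library from its group mean had a correlation of 0.081, -0.035 and -0.003 with that of the treated library of the same number. With the replicate number as a block all the same, 1202 genes were higher and 1909 lower (without it 2442 and 2887), the members called higher came to 2, and the listed other translation genes to 6 higher and 7 lower (without it 12 and 11). With every transcript as a row, 6379 rows were higher and 7250 lower. Members called came to 7 higher and 7 lower with equal totals (over all genes, 1672 and 3442). With a mean-variance trend 19 members were higher and 6 lower (over all genes, 2880 and 3307). At a limit of 0.05, 23 members were higher and 11 lower (all genes tested, 28.5% and 33.7%), and 19 listed genes were higher. Without a filter 7 listed genes were lower. Leaving out 1 library at a time gave 929 to 2717 genes higher and 1502 to 3444 lower, 0 to 12 members higher and 3 to 6 lower, and 5 to 16 listed genes higher and 5 to 13 lower; the smallest counts came without a Control library or without DCC-2036 library 2, whereas without DCC-2036 library 1 or 3 the members higher came to 12 and 11. The 13 called members other than EIF1B, EIF2B4 and EIF4G3 lost their call in at least 1 alternative, and 13 uncalled members gained one. Signs changed only in uncalled genes. With equal totals the log2 fold change was -0.11 for EIF1AX, -0.18 for EIF2B2, -0.13 for EIF2B3, -0.016 for EIF2S1, -0.034 for EIF3I, -0.099 for EIF3J, -0.093 for EIF4A1, -0.089 for EIF4E2, -0.18 for EIF4G2 and -0.11 for EEF2K. With upper-quartile scaling it was -0.044 for EIF2B2, -0.0011 for EIF2B3 and -0.050 for EIF4G2. Over left-out libraries it ran from -0.023 to 0.060 for EIF2B2, -0.014 to 0.23 for EIF4E2, -0.023 to 0.064 for EIF4G2 and -0.20 to 0.47 for EEF2K. The cause of these changes was not tested. Depth is unknown, so the counting error of low values, such as those of EIF4EBP3 and EIF5AL1, is unknown too.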

Other observations

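Of 14 listed elongation and termination factors and eIF5A-modifying enzymes, 13 were tested, of which 2 rose and 2 fell (all genes tested, 19.2% and 22.7%). EEF1G, a subunit of the exchange factor for eEF1A, rose from 29972, 32740 and 34138 in Control to 48170, 56133 and 61009 in treated cells (log2 fold change 0.77, SE 0.13, limma adjusted p = 0.00276). EEF2, the translocation factor, rose from 78598, 83763 and 90682 to 108877, 124783 and 128352 (log2 fold change 0.52, SE 0.12, limma adjusted p = 0.00875). In both genes every treated library was above every Control library. EEF2K, the kinase that inhibits it, had a log2 fold change of 0.08 with a 95% interval from -0.70 to 0.87, with treated values of 1115, 876 and 443 on both sides of the Control values of 747, 716 and 680.

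EEFSEC, the factor that delivers selenocysteine tRNA, fell from 454, 413 and 419 in Control to 150, 130 and 135 in treated cells (log2 fold change -1.62, SE 0.11, limma adjusted p = 0.000216). DHPS, the enzyme of the initial step of hypusine formation on eIF5A, fell from 894, 873 and 896 to 547, 550 and 559 (log2 fold change -0.68, SE 0.09, limma adjusted p = 0.00125). DOHH, which completes hypusine, was higher in all treated libraries, with a log2 fold change of 0.25 that did not pass the limit (limma adjusted p = 0.0775). EEF1A1, the abundant carrier of aminoacyl-tRNA, was also higher in every treated library (log2 fold change 0.69, limma adjusted p = 0.0117).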
